A study of Homo sapiens with 2 samples.

Results

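The 10 genes described here mark or maintain the naive state of pluripotency, the state of the early epiblast before implantation: the Krüppel-like factors KLF2, KLF4, KLF5 and KLF17, the transcription factors TFCP2L1, TFAP2C, ESRRB and TBX3, and the developmental pluripotency associated genes DPPA3 and DPPA5. They were chosen by name, with earlier results of these data known, and all 10 were found, each in 1 row, among the 25436 gene symbols of the deposited table of FPKM, a fragment number corrected for the length of the transcript and the size of the library. Levels were measured by sequencing of polyadenylated RNA in HuES53 and HuES64, 2 human embryonic stem cell lines. Both were diploid, undifferentiated and below passage 20, and both are IVF lines (from in vitro fertilized embryos) that were the controls of a study on haploid cells. No treatment or genetic change is named for either line, and their culture medium is not given in the sources used here. Each line gave 1 library, so the values below carry no replicate error, no test between the lines was possible, and each difference describes these 2 libraries. In such bulk RNA, fewer cells that express a gene and less of its RNA per cell cannot be told apart.

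Human embryonic stem cells kept under standard conditions are usually in the primed state, which resembles the epiblast after implantation. The naive state is held by a partly different set of transcription factors, and its network was worked out in mouse cells. There signalling by LIF through STAT3 feeds KLF4 and TFCP2L1, and ESRRB, KLF2 and TBX3 are also part of the network. In human cells KLF17, DPPA3, DPPA5, TFCP2L1 and TFAP2C are widely used to tell naive from primed cultures, while ESRRB and KLF2 play a smaller part than in the mouse. Krüppel-like factors bind GC boxes and CACCC boxes in promoters through their zinc fingers.

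The set of RefSeq promoter windows used here held no entry for TFAP2C and TBX3. It held windows for 8 of the 10 genes, KLF2, KLF4, KLF5, KLF17, TFCP2L1, ESRRB, DPPA3 and DPPA5. The 250 bases before the start are printed for 4 of them: KLF5 and DPPA3, which differed most between the lines, DPPA5, the other short gene of the DPPA group, and KLF17, the lowest of the 10. KLF5 has an upstream and a downstream start and is printed with both. The windows are chr13:73054726-73054975 and chr13:73058755-73059004 (plus strand) for KLF5, chr12:7711183-7711432 (plus strand) for DPPA3, chr6:73354277-73354526 (minus strand) for DPPA5 and chr1:44118571-44118820 (plus strand) for KLF17, all in GRCh38.p14 and written 5′ to 3′ along the gene. Capitals mark every match to the GC box GGGCGG or to CACCC, on either strand, so that CCGCCC and GGGTG are marked too; neighbouring matches can share bases.
KLF5 upstream start: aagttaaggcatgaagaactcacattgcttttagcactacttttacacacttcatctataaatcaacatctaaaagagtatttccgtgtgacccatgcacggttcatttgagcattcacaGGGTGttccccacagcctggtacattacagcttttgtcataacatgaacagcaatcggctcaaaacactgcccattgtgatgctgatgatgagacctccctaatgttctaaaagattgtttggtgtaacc
KLF5 downstream start: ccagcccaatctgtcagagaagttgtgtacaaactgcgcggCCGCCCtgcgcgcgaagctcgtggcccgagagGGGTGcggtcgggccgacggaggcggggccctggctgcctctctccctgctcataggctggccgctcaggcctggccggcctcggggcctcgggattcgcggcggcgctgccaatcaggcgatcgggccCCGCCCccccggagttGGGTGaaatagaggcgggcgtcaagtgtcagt
DPPA3: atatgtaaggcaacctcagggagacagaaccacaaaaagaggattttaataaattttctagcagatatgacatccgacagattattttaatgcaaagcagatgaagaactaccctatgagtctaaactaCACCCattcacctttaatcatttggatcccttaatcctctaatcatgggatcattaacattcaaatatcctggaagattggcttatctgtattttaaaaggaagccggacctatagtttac
DPPA5: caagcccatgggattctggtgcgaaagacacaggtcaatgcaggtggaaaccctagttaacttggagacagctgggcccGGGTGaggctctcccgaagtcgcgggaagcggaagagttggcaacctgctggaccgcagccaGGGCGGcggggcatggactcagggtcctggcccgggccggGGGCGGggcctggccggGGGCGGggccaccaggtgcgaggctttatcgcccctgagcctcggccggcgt
KLF17: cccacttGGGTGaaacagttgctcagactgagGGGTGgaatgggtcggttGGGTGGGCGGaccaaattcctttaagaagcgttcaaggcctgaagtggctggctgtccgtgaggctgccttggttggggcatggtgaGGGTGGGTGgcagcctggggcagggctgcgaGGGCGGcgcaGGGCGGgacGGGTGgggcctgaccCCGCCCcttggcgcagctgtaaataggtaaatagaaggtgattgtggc

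The genome build of the deposited loci is not given in the sources used here. Starts, which the table counts from 0, are written here counted from 1. KLF2 lay at chr19:16435651-16438345, KLF4 at chr9:110247133-110252047, KLF5 at chr13:73633142-73651676 and KLF17 at chr1:44584522-44600812. TFCP2L1 lay at chr2:121974163-122042778, TFAP2C at chr20:55204358-55214339, ESRRB at chr14:76837690-76968180 and TBX3 at chr12:115108059-115121969. DPPA3 lay at chr12:7864089-7870155 and DPPA5 at chr6:74062785-74063999. FPKM covers the whole gene, so no value belongs to a single exon.

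The windows differed widely in base composition. DPPA3 had 35.6% GC and 2 CpG pairs, with no GC box and 1 CACCC match, and only 6.19% of the 35116 RefSeq windows of this length had less GC. The upstream KLF5 window was also low, at 40.8% GC with no GC box, whereas the downstream one had 70.8% GC, 27 CpG pairs, 2 GC boxes and 2 CACCC matches. DPPA5 had 68.8% GC and 3 GC boxes. KLF17 had 62.8% GC, 4 GC boxes and 6 CACCC matches. Among the windows not printed, KLF2 (80.0% GC) and KLF4 (69.2%) held 4 GC boxes each and TFCP2L1 (76.8%) held 5, while none of the 3 ESRRB windows held one. In all, 6 of the 11 windows of these genes held a GC box and 9 held a CACCC match, against 42.6% and 54.7% of all windows. The octamer ATGCAAAT, the letters bound by POU5F1, was in none of the 11 and in 1.63% of all windows. A match of letters is a description of the window and no measure of binding.

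Most of the 10 genes were expressed at low levels in both lines, and TFAP2C alone stood high. At or above 1 FPKM were 6 of the 10 in HuES53 and 7 in HuES64, beside 54.2% and 53.3% of all symbols. The median over the 10 was 2.53 FPKM in HuES53 and 1.31 in HuES64, below the median of all symbols above 0, which was 4.997 and 5.08 FPKM. TFAP2C, with 21.1 and 20.4 FPKM, made up 51.8% and 62.7% of the summed FPKM of the 10. It lay at the 77.2 percentile of expressed symbols in HuES53 and at the 75.7 percentile in HuES64. For scale, POU5F1, the core factor of all pluripotent states, stood at 1053 and 1381 FPKM, so that TFAP2C reached 2.00% and 1.47% of its level.

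The depth behind these values was read from the table itself. Olfactory receptor genes, which are silent in most tissues and lack introns, fell on steps of whole fragments. Within 3% of a step lay 18 of the 21 receptors considered in HuES53, and 9 of the 11 in HuES64. On these steps 1 FPKM over 1 kb of transcript stood for 18.8 fragments in HuES53 and 15.4 in HuES64, after 208 bases were taken off each length. With the longest coding transcript of each gene, TFAP2C rested on about 1053 fragments in HuES53 and 832 in HuES64. KLF17 rested on 1 and 2 fragments. Intervals given here are exact 95% Poisson intervals on these fragment numbers. They cover counting error only, and the fragment numbers scale with the assumed transcript length.

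**Figure D1:**
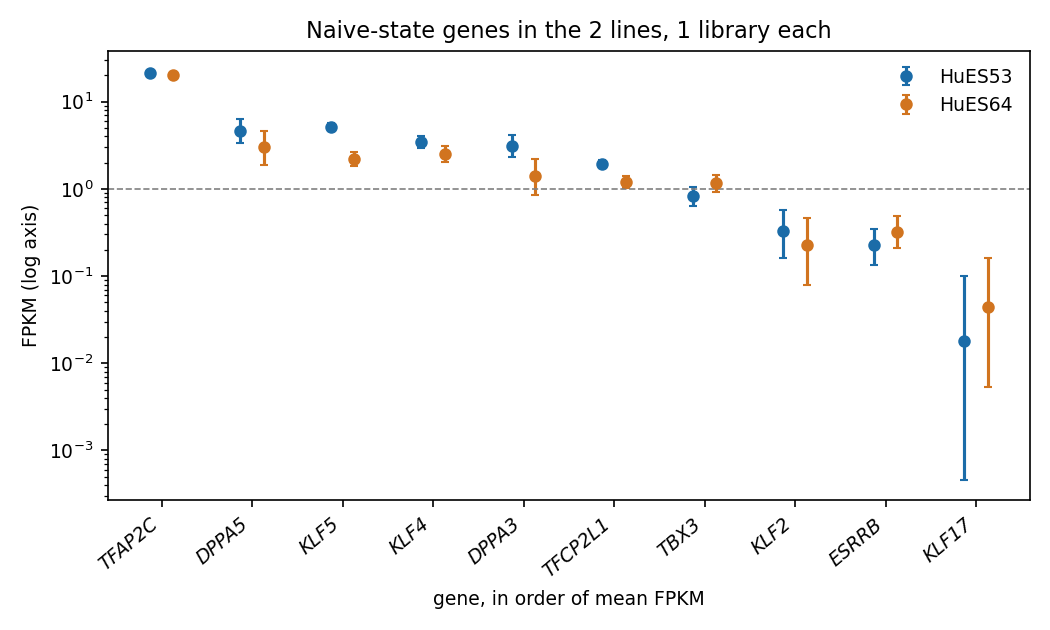
FPKM (log axis) of each of the 10 genes in HuES53 and HuES64, in order of mean level; points are the single library of each line, bars are 95% Poisson intervals for counting error, and the dashed line marks 1 FPKM. TFAP2C lies near 20 FPKM in both lines, 5 genes lie between 1 and 6 FPKM in both, and KLF17 lies under 0.05 FPKM.

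The order of levels was nearly the same in the lines. In HuES53, KLF5 (5.10 FPKM), DPPA5 (4.60), KLF4 (3.47) and DPPA3 (3.13) followed TFAP2C, and each of these 4 overlapped its neighbour within counting error. TFCP2L1 (1.93 FPKM, interval 1.73 to 2.15) and TBX3 (0.823 FPKM, 0.643 to 1.04) stood apart below them, and KLF2 (0.331) and ESRRB (0.227) could not be told apart. In HuES64 all neighbours from DPPA5 (3.03 FPKM) through KLF4 (2.53), KLF5 (2.21), DPPA3 (1.41) and TFCP2L1 (1.21) to TBX3 (1.16) had overlapping intervals. Below a gap came ESRRB (0.324 FPKM, 0.208 to 0.484), KLF2 (0.224, 0.0791 to 0.469) and KLF17 (0.0444, 0.00539 to 0.161). KLF5 went from rank 2 among the 10 in HuES53 to rank 4 in HuES64.

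The Krüppel-like members were minor parts of their family. KLF2, KLF4, KLF5 and KLF17 together summed to 8.92 FPKM in HuES53 and 5.004 in HuES64, which was 8.51% and 5.46% of the summed FPKM of all 17 KLF genes. By the mean of the lines the family was led by KLF10, a gene induced by TGF-beta (24.3 and 21.1 FPKM), KLF16 (18.7 and 20.4) and KLF6 (11.8 and 7.69). In HuES64 alone, KLF11 (9.25 FPKM) and KLF13 (8.36) were above KLF6. Of the 12 KLF genes averaging 1 FPKM or more, 9 were higher in HuES53 and 3 in HuES64. Their median difference in log2(FPKM + 1) was 0.29. Among all genes at this level, 52.5% were higher in HuES53. KLF5, which acts in both the epiblast and the trophectoderm of the embryo, ranked 9 of 17 in HuES53 and 11 of 17 in HuES64. KLF4, a reprogramming factor and a target of LIF signalling, had 3.47 FPKM in HuES53 (about 170 fragments) against 2.53 in HuES64 (101 fragments), and ranked 10 of 17 in each line. KLF2, a naive factor of mouse cells that is also known from blood vessel lining, stood at 0.331 and 0.224 FPKM, on about 11 and 6 fragments.

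KLF17, a factor of the human epiblast and of naive human cultures, was the lowest of the 17 in both lines. Its 0.0182 FPKM in HuES53 equals 0.998 fragments by the steps above, and its 0.0444 FPKM in HuES64 equals 2.00. Both values lie at or under the floor of 3 fragments, 0.0546 and 0.0668 FPKM, so no fold is given.

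TFAP2C, a transcription factor that opens enhancers of the naive state and also acts in the trophoblast and in primordial germ cells, was nearly the whole of its family. It held 96.9% of the summed TFAP2 FPKM in HuES53 and 95.1% in HuES64. TFAP2A, the member typical of trophoblast and surface ectoderm, whose locus overlaps another gene, stood at 0.260 and 0.333 FPKM, TFAP2E at 0.402 and 0.688, TFAP2B at 0.00954 and 0.0350, and TFAP2D was listed at 0 in both lines.

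The other naive transcription factors were each outweighed by a relative. TFCP2L1, a target of STAT3, reached 1.93 FPKM in HuES53 against 1.21 in HuES64, while its ubiquitous relatives UBP1 (35.6 and 31.3 FPKM) and TFCP2 (21.7 and 19.8) were far higher. TFCP2L1 held 2.87% and 2.07% of the FPKM of its family of 6. Of these 6, 5 were higher in HuES53 (6 when each library was divided by its FPKM sum). Among all genes averaging 1 FPKM or more, 52.5% were higher in HuES53 (72.1% with the FPKM sums). ESRRB, an orphan nuclear receptor, stood at 0.227 and 0.324 FPKM beside 18.0 and 24.6 for ESRRA, its relative in energy metabolism, whose locus overlaps another gene. The third receptor, ESRRG, stood at 0.570 and 0.131 FPKM. TBX3, a repressor of the T-box family, had 0.823 FPKM in HuES53 against 1.16 in HuES64, on either side of 1 FPKM. The highest T-box gene was EOMES, a factor of endoderm and mesoderm formation, with 7.26 and 4.41 FPKM, and of the 4 T-box genes averaging 1 FPKM or more, 2 were higher in each line.

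**Figure D2:**
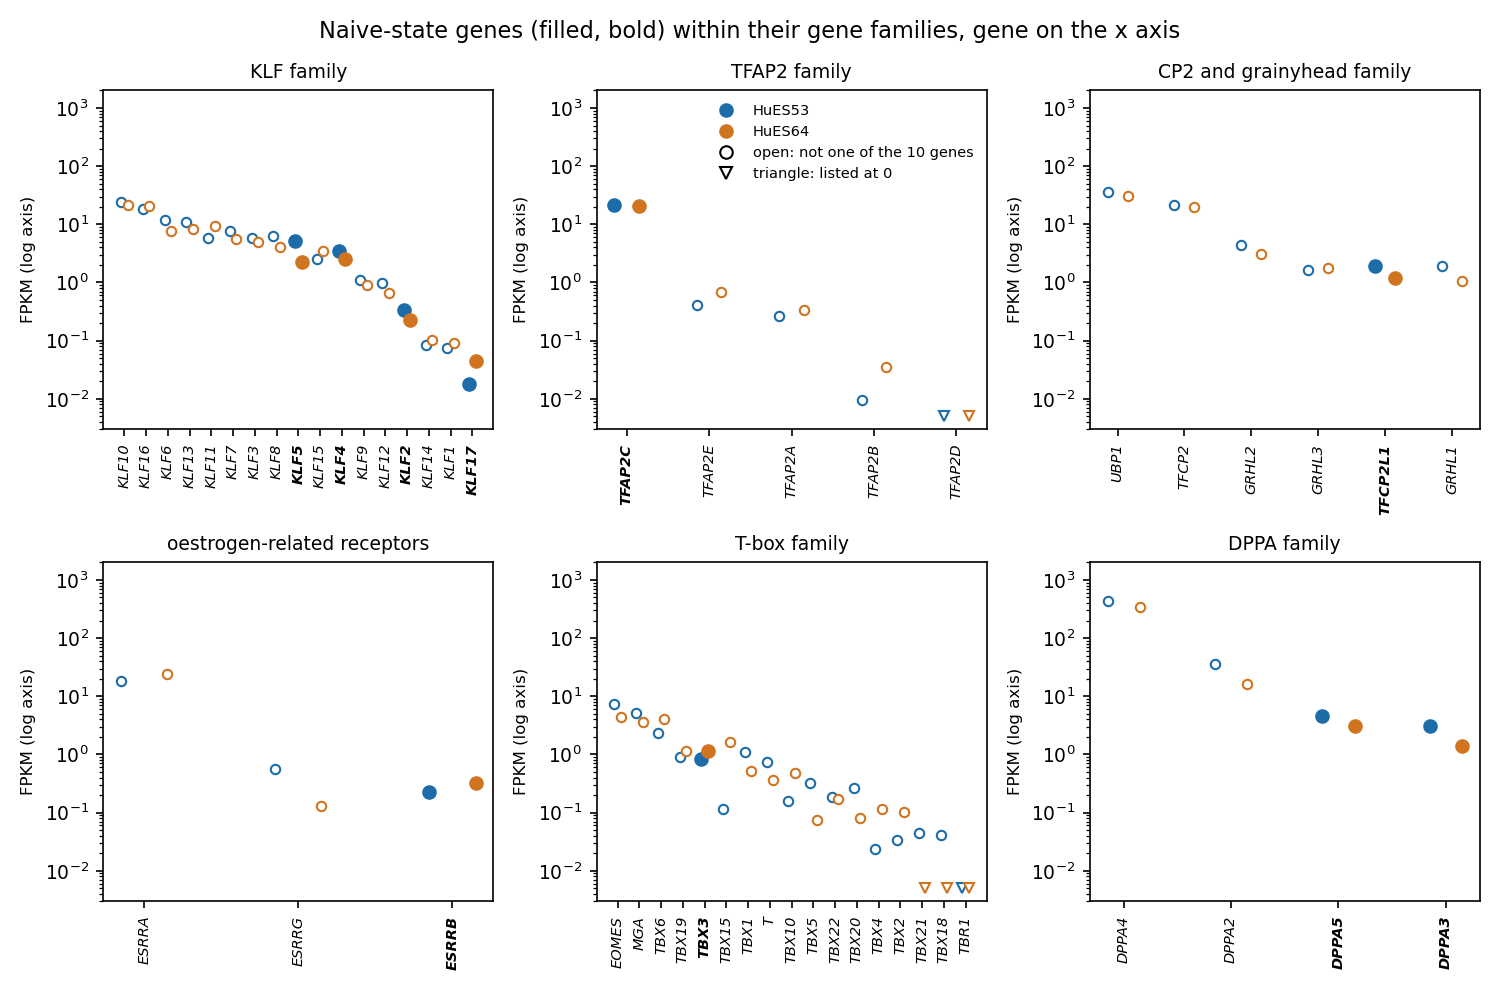
FPKM (log axis) of every gene of the 6 families that hold a naive-state gene, 1 point per gene and line, with the naive-state genes filled and in bold, and triangles for values listed at 0. TFAP2C tops its family at 21.1 and 20.4 FPKM, while KLF17, TFCP2L1, ESRRB, DPPA3 and DPPA5 lie well below the highest relative in each panel.

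DPPA3 and DPPA5 were far below the other DPPA genes. DPPA3, an oocyte and early embryo protein that protects DNA methylation patterns, had 3.13 FPKM in HuES53 (about 51 fragments) against 1.41 in HuES64 (19 fragments). DPPA5, which encodes a small RNA-binding protein, stood at 4.60 FPKM (41 fragments) and 3.03 FPKM (22 fragments). DPPA4, a chromatin protein found in naive and primed cells alike, stood at 434 and 342 FPKM, and its partner DPPA2 at 36.4 and 16.4. DPPA3 gave 0.656% of the family sum in HuES53 and 0.388% in HuES64, and DPPA5 gave 0.963% and 0.835%. All 4 DPPA genes were higher in HuES53, DPPA2 by 2.15-fold, beside 52.5% of all genes averaging 1 FPKM or more that were higher there. The GENCODE annotation names 3 pseudogene copies each of DPPA3 and DPPA5, 4 of KLF2 and 1 each of KLF4 and KLF17, and how the authors placed fragments that match such copies is not given in the sources used here. None of the 10 loci overlaps another gene of the table.

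The naive-state genes averaging 1 FPKM or more leaned towards HuES53, by amounts below 2-fold. These were 6 of the 10, and each of the 6 was at or above 1 FPKM in both lines: TFAP2C, DPPA5, KLF5, KLF4, DPPA3 and TFCP2L1. All 6 were higher in HuES53, where 52.5% of the 13790 genes at this level were higher. Their median difference, as log2(FPKM + 1) in HuES53 minus HuES64, was 0.44, beside 0.03 for all these genes. At least 1.5-fold higher in HuES53 were 2 of the 6, KLF5 and DPPA3, beside 9.22% of all genes, and none was 1.5-fold higher in HuES64, where 7.84% of all genes were. None of the 6 reached 2-fold, beside 2.15% of all genes in the direction of HuES53 and 1.7% in that of HuES64. The other 4, TBX3, KLF2, ESRRB and KLF17, had means under 1 FPKM, TBX3 only just (0.994), and over all 10 genes 7 were higher in HuES53 and 3 in HuES64.

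KLF5 differed most. It had 5.10 FPKM in HuES53 against 2.21 in HuES64, on about 322 and 114 fragments, a difference of 0.93 (1.90-fold) with an exact binomial 95% interval from 0.70 to 1.16 for counting error alone. A difference of this size or larger in either direction was seen in 4.84% of all genes. DPPA3 followed with 0.78 (1.72-fold, interval 0.24 to 1.26), a size reached by 8.15% of all genes. Its interval is wide because it rests on few fragments. TFCP2L1 differed by 0.41 (0.24 to 0.56), with a small counting error because its transcript is 9292 bases long. With the GC and length trend described below removed, TFCP2L1 differed by 0.17 and KLF5 by 0.65, both below their intervals. DPPA3, at 0.72, stayed within its own. The intervals of KLF5, DPPA3 and TFCP2L1 left out 0, and that of KLF5 did so with the median transcript too. Those of KLF4 and, towards HuES64, TBX3 left out 0 with the longest transcript only. DPPA3 and TFCP2L1 have 1 reference transcript each, so for them the longest and the median transcript are the same.

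The remaining differences were small or imprecise. KLF4 differed by 0.34 (0.07 to 0.61, or -0.07 to 0.74 with the median transcript) and DPPA5 by 0.48 (-0.14 to 1.09). TFAP2C, with the most fragments, was the most level of the 6, at 0.05 (-0.08 to 0.17). TBX3 went the other way, at -0.25 (-0.48 to -0.01, with the upper end at 0.00 for the median transcript), and ESRRB, at -0.11 (-0.30 to 0.08), and KLF2, at 0.12 (-0.21 to 0.39), were within counting error of 0. The pseudocount makes these differences smaller than the plain ratios of FPKM, which were 2.31 for KLF5, 2.23 for DPPA3, 1.598 for TFCP2L1, 1.52 for DPPA5 and 1.37 for KLF4. With a pseudocount of 0.1 FPKM, KLF5 and DPPA3 passed 2-fold, and DPPA5 and TFCP2L1 passed 1.5-fold. Of all genes, 4.24% were then at least 2-fold and 13.4% at least 1.5-fold higher in HuES53.

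**Figure D3:**
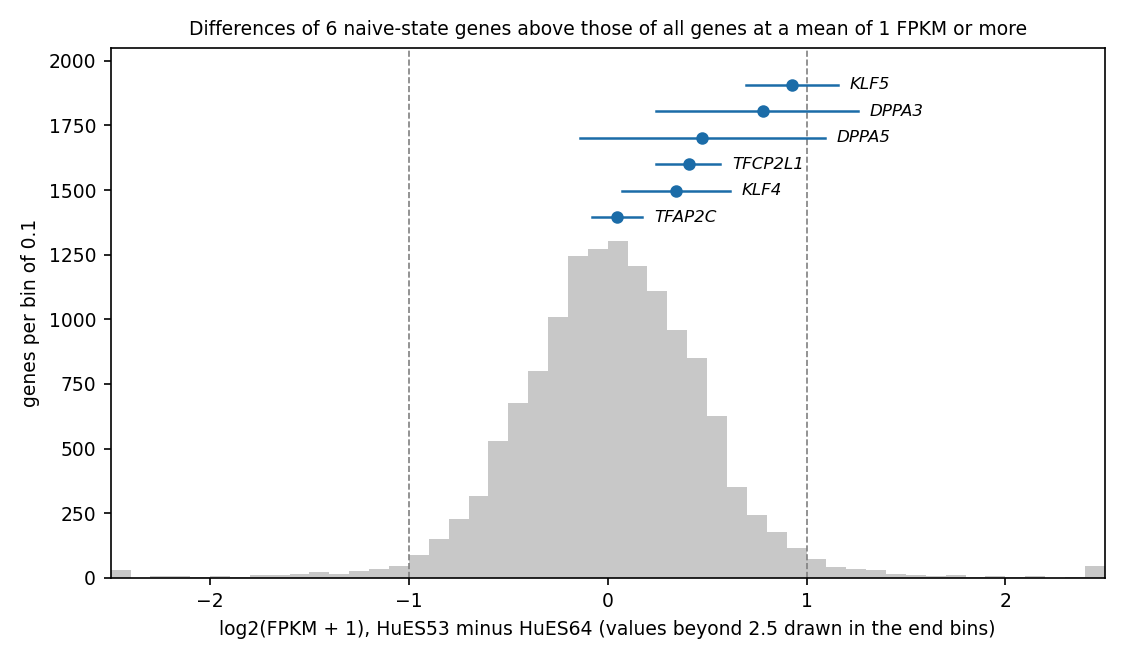
Difference in log2(FPKM + 1), HuES53 minus HuES64: grey bars count the 13790 genes averaging 1 FPKM or more in bins of 0.1, and points with bars show the 6 naive-state genes with 95% binomial intervals for counting error, dashed lines marking 2-fold. The 6 points run from 0.05 for TFAP2C to 0.93 for KLF5, all to the right of 0 and left of 1.

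The differences of all genes depended on the GC content of their transcripts, and the 6 naive-state genes spanned most of that range. The median difference of all genes over 10 equal groups by GC fell from 0.32 in the group of lowest GC, centred on 38.7%, to -0.30 in that of highest GC, centred on 64.5%. DPPA3 (40.04% GC) and KLF5 (43.0%), with the largest differences, lay in groups whose medians were 0.32 and 0.23. DPPA5 (49.2%) and TFCP2L1 (50.0%) lay in a group with a median of 0.09. KLF4 (58.6%) and TFAP2C (62.1%) lay in groups with medians of -0.15 and -0.22. Each of the 6 was therefore above the median of its own group, including TFAP2C, which was level between the lines. With the trend in GC and length taken out, the differences were 0.72 for DPPA3, 0.65 for KLF5, 0.59 for KLF4, 0.51 for DPPA5, 0.38 for TFAP2C and 0.17 for TFCP2L1. Their median was then 0.55, beside 0.04 for the 11916 genes with a reference transcript. These differences used the median over each gene's transcripts. With the longest transcript, an alternative chosen after seeing the data, they were 0.90 for DPPA3, 0.82 for KLF5 and 0.80 for DPPA5. They were 0.49 for KLF4, 0.24 for TFCP2L1 and 0.07 for TFAP2C, so that TFAP2C was then near the 0.04 of all genes.

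**Figure D4:**
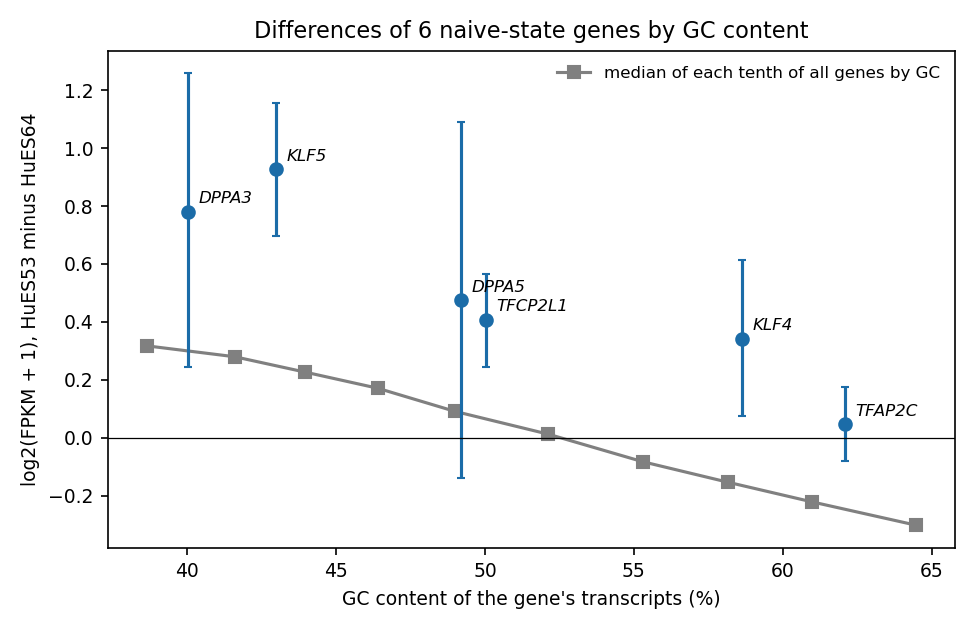
Difference in log2(FPKM + 1), HuES53 minus HuES64, against the median GC content of a gene's transcripts, for 6 naive-state genes (points, with 95% binomial intervals for counting error) and for all genes in 10 equal groups by GC (squares, medians). The squares fall from 0.32 to -0.30, and all 6 points lie above the line that joins them.

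Other genes of the naive state gave a like picture of low levels, with a lean towards HuES53 among those averaging 1 FPKM or more. Of a further 26 naive-state genes, 14 were at or above 1 FPKM in HuES53 and 10 in HuES64, with medians of 1.204 and 0.793 FPKM. The 3 highest were genes shared with the primed state, the core factor NANOG (94.4 and 84.7 FPKM), ZFP42 (99.9 and 57.0) and PRDM14 (54.2 and 47.6). These 3 are counted again among the core pluripotency factors below, and IL6ST is counted again in the LIF and STAT3 pathway. Among the 14 averaging 1 FPKM or more, 13 were higher in HuES53, beside 52.5% of all genes at this level. Their median difference was 0.60, with the GC trend not removed. NODAL, a ligand of the TGF-beta family that also serves primed cells, was 2-fold higher in HuES53 (47.2 against 21.5 FPKM), and so was the growth factor gene FGF4 (2.73 against 0.514). ARGFX, DPRX, TRIM60 and HORMAD1 were listed at 0 in both lines. SUSD2, a surface protein gene, was the 1 of the 14 that was higher in HuES64. The genes with lower means were mixed. DNMT3L, ALPP, DUSP26, KHDC1L and OLAH were higher in HuES64, and KHDC3L, MAEL and FAM151A in HuES53.

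Primed-state genes had far higher levels, and a median difference nearer to 0. Of 25 listed, 24 were in the table, CD24 being the exception, and 22 were at or above 1 FPKM in each line. Their median was 36.5 FPKM in HuES53 and 26.4 in HuES64, against 2.53 and 1.31 for the 10 naive-state genes. VIM, an intermediate filament gene (588 and 736 FPKM), DNMT3B, a DNA methyltransferase (521 and 376), and PODXL, a surface glycoprotein gene (417 and 450), were the highest. Of the 22 averaging 1 FPKM or more, 13 were higher in HuES53 and 9 in HuES64, none by 2-fold, with a median difference of 0.11. Dividing each library by its FPKM sum, which raised the median of all genes to 0.24, made these counts 18 and 4. VIM overlaps another gene in the table. All 10 core pluripotency factors were at or above 1 FPKM, and 7 of them were higher in HuES53. That count was 9 with the FPKM sums and 6 with scaling by the median of ratios. The shares of all genes averaging 1 FPKM or more were 52.5% as reported, 72.1% with the FPKM sums and 49.9% with the median of ratios.

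**Figure D5:**
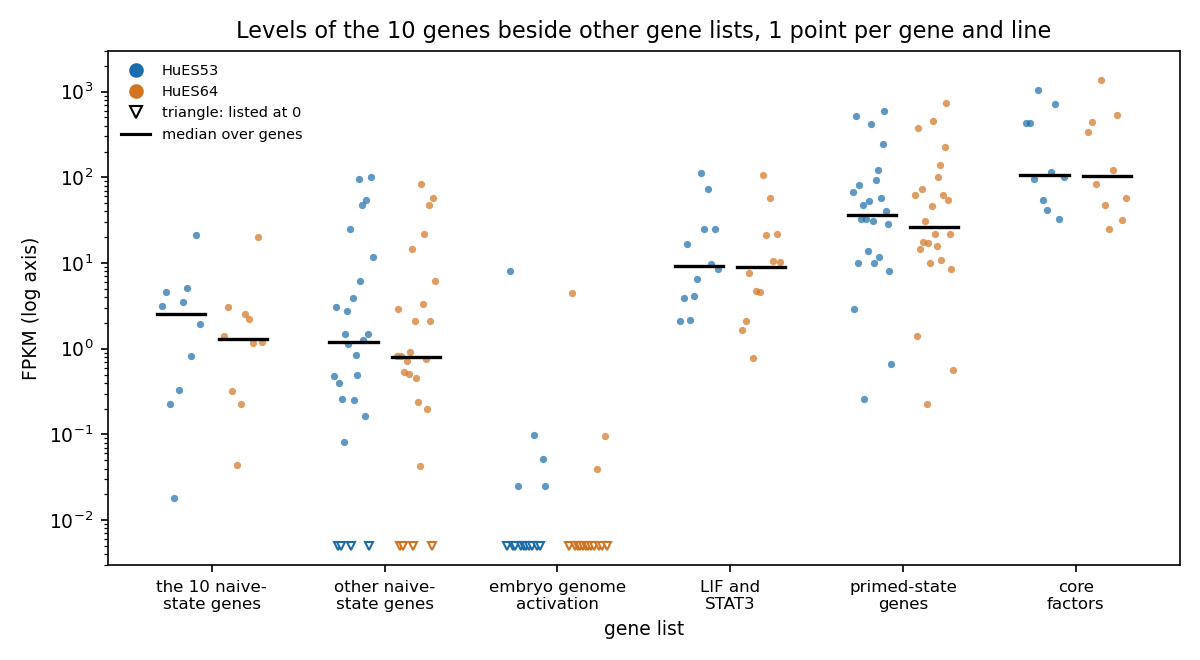
FPKM (log axis) of the genes of 6 lists in HuES53 and HuES64, 1 point per gene and line, with triangles for values listed at 0 and black bars for medians over all genes of the list where these are above 0. The medians of the 10 naive-state genes, 2.53 and 1.31 FPKM, lie below those of the primed-state genes, 36.5 and 26.4, and of the core factors, 107 and 103.

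The LIF and STAT3 pathway, which feeds KLF4 and TFCP2L1 in mouse cells, was expressed. All 12 listed genes were at or above 1 FPKM in HuES53 and 11 in HuES64, JAK2 (2.14 and 0.780 FPKM) being the exception. The ligand LIF stood at 4.18 and 4.76 FPKM and its receptor chains LIFR at 6.57 and 4.59 and IL6ST at 3.89 and 2.12. The kinase JAK1 was just past 2-fold, at 16.5 against 7.70 FPKM, a difference of 1.01. JAK1 and LIFR each overlap at least 1 other gene in the table. STAT3 itself stood at 25.1 and 22.1 FPKM, and MCL1 (114 and 107) and PIM1 (73.8 and 57.9), both induced by STAT3, were the highest, while the feedback inhibitor SOCS3 stood at 9.82 and 10.5. The median difference of the 12 was 0.21, with 9 higher in HuES53 (11 with the FPKM sums). Of all genes averaging 1 FPKM or more, 52.5% were higher in HuES53 (72.1% with the FPKM sums).

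Genes of embryonic genome activation, which precede the naive epiblast, were low or listed at 0. Of 16 listed, 15 were in the table, and 1 was at or above 1 FPKM, the cyclin gene CCNA1 (8.08 and 4.45 FPKM). ZSCAN4 (0.0521 and 0.0956 FPKM) and TPRX1 (0.0977 and 0.0398) came next, and 10 of the 15, DUXA and LEUTX among them, were listed at 0 in both lines.

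Since TFAP2C and DPPA3 also mark other cell types, markers of those types are given beside them. Of 14 primordial germ cell markers, which include both genes, 12 were at or above 1 FPKM in HuES53 and 11 in HuES64, with summed levels of 266 and 304 FPKM. The surface enzyme ALPL (117 and 157 FPKM), PDPN (63.9 and 57.5) and SOX15 (26.9 and 33.3), led that list; the SOX15 locus overlaps another gene. The others at or above 1 FPKM in both lines included KIT (11.8 and 5.85), SOX17 (6.89 and 10.6), TCL1B (4.72 and 7.74), DAZL (1.89 and 3.86) and PRDM1 (1.05 and 1.09). Of the 11 averaging 1 FPKM or more, 5 were higher in HuES53 and 6 in HuES64, counts that were 6 and 5 with the FPKM sums or upper quartile scaling. The germ cell genes NANOS3 (0.170 FPKM) and DDX4 (0.0245) were near 0 in HuES53 and listed at 0 in HuES64. Of 14 trophoblast markers, 5 were at or above 1 FPKM in HuES53 and 4 in HuES64, with summed levels of 19.2 and 16.7 FPKM, KRT7 (6.19 and 5.35), PGF (3.74 and 5.76) and GATA3 (2.30 and 1.93) being the highest by the mean of the lines. HAND1 (1.39 and 2.21 FPKM) was above GATA3 in HuES64. CGA, the alpha chain of the placental hormone, reached 2.90 FPKM in HuES53. In HuES64 it was listed at 0, as were ELF5, TP63, VGLL1 and XAGE2. All 10 endoderm markers were at or above 1 FPKM in both lines, beside 54.2% of all symbols in HuES53 and 53.3% in HuES64. Of these 10, 9 were higher in HuES53, beside 52.5% of all genes averaging 1 FPKM or more. Their median difference was 0.52. They summed to 667.5 FPKM in HuES53 and 172 in HuES64, mostly through CER1 (543 and 104). CER1, CXCR4 (68.1 and 26.3 FPKM) and AFP (7.25 and 1.53) were at least 2-fold higher in HuES53, beside 2.15% of all genes. Of 9 mesoderm markers 6 were at or above 1 FPKM in each line (summed 57.1 and 36.2 FPKM). KDR (27.6 and 17.6) was highest, MIXL1 was 2-fold higher in HuES53 (6.84 against 2.52) and MSGN1 was at 0 in both. Of the 6 mesoderm markers averaging 1 FPKM or more, 4 were higher in HuES53 and 2 in HuES64. Their median difference was 0.62, above that of the endoderm markers, with the GC trend not removed from either. Of 10 neuroectoderm markers 1 reached 1 FPKM in HuES53 and 0 did in HuES64 (summed 2.61 and 2.19 FPKM), with HES5 at 0 in both. Of 12 fibroblast markers 10 reached 1 FPKM in HuES53 and 9 did in HuES64 (summed 1022 and 1433 FPKM). TAGLN (779 and 1165) gave most of these sums, followed by COL1A1 (138 and 168) and COL1A2 (66.5 and 46.7). DCN stood at 0.199 and 0.438 FPKM, and COL3A1 was 2-fold higher in HuES64 (3.08 against 8.00). The COL1A2 and COL3A1 loci each overlap at least 1 other gene. The part of any of these cell types in the differences of the naive-state genes was not tested.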

How the data were processed

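Polyadenylated RNA of 2 lines was sequenced, 1 library each, with a TruSeq RNA kit, per the labels. The authors deposited FPKM values, fragments scaled by length and library size. TopHat2 2.0.4 and Cufflinks 2.0.2 were used in unstated roles, per the submitters' processing notes. Build, annotation and strand setting: not given in the sources used here. A count test needs raw counts, and 1 library per line allows no test of any kind. Of 25593 rows, 136 on chromosome Y were left out, and 21 repeated symbols were summed.

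Differences are log2(FPKM + 1) in HuES53 minus HuES64 over 13790 genes averaging 1 FPKM or more. Transcript lengths and GC content came from GENCODE release 29, matched by symbol for 86.4% of these genes, and the trend was taken out by subtracting medians over 20 bins of each in 5 rounds. Fragment numbers came from the steps of olfactory receptor values, on loci under 1100 bases, starting from 200 bases lost, and the step was the size that fitted most values. That step was searched for, so its fit is no separate evidence for the depth. Promoters came from RefSeq (GRCh38.p14), and the first 250 bases of each window were used.

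The 10 genes and the 17 other lists were chosen with earlier results of these data known, and no direction of a list is independent evidence. All 10 genes are named. From each other list up to 3 of the highest genes and any 2-fold different gene averaging 1 FPKM or more are named. Others, chosen after their values were seen, are named for their role or for the line in which they were higher. Alternatives were smaller pseudocounts (0.1 and 0.5 FPKM), the filter dropped or set at 5 FPKM, 3 scalings, the highest row of a repeated symbol, the trend removed, and other detection thresholds. Analyses used Python 3.11.15, pandas 2.3.3, NumPy 2.4.6 and SciPy 1.17.1.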

Additional observations from a re-analysis of the deposited data

How the results depend on the processing

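No paired analysis was possible because each line gave 1 library. The 6 genes averaging 1 FPKM or more were all higher in HuES53 under the 3 scalings and with the trend removed. Of all genes, 72.1% were higher there with the FPKM sums and 58.7% with upper quartile scaling. The share was 49.9% with the median of ratios and 55.5% with the trend removed. Smaller pseudocounts and the highest row of a repeated symbol cannot change which line is higher for these genes. Of 73 recomputed differences of single genes, 63 stayed within their counting interval and 10 left it. None changed sign, but those with another pseudocount or the highest row could not. Nor could TFAP2C at a mean of at least 5 FPKM. The highest row also left each value as it was. The median difference of 0.44 was 0.61 with a pseudocount of 0.1 FPKM, 0.23 without a filter (10 genes), 0.047 at a mean of at least 5 FPKM, where TFAP2C alone was tested, 0.61 when each library was divided by its FPKM sum (0.24 for all genes), 0.55 after removal of the GC and length trend, and 0.65 with that trend taken from the longest transcript, an alternative chosen after seeing the data. Genes at least 1.5-fold higher in HuES53 went from 2 (beside 9.22% of all genes) to 4 with a pseudocount of 0.1 FPKM (13.4%). They were 0 at a mean of at least 5 FPKM (7.25%). The count was 3 with the FPKM sums (KLF5, DPPA3 and DPPA5, where 20.9% of all genes were) and 3 with the trend removed (KLF4, KLF5 and DPPA3, beside 7.12%), or KLF5, DPPA3 and DPPA5 with the trend from the longest transcript (6.27%). Genes at least 2-fold higher in HuES53 went from 0 (beside 2.15% of all genes) to 2 with a pseudocount of 0.1 FPKM (4.24%). They were 1 with 0.5 FPKM (3.12%) and 1 with the FPKM sums (4.26%). At or above 5 FPKM were 2 of the 10 genes in HuES53 and 1 in HuES64, beside 38.3% and 37.1% of all symbols. With the median transcript, an alternative also added after seeing the data, fragment numbers fell to 77.0 and 45.8 for KLF4, 581 and 459 for TFAP2C and 11.3 and 13.1 for ESRRB. KLF17 was under the floor of 3 fragments in both lines.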
